A study of Mus musculus with 7 samples.

Results

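The genes of the eukaryotic translation initiation factors were taken as every entry of the 7 Smart-seq2 tables whose symbol starts with Eif followed by a digit. This name rule gave 57 of the 25912 listed entries, and no measured value was used to choose them. They fell into 16 symbols that start with Eif2, 14 with Eif3, 17 with Eif4 and 10 others that start with Eif1, Eif5 or Eif6. Of the 57 genes, 50 had a mean of the 3 group means of at least 1 FPKM and were tested, namely 13 of eIF2, 13 of eIF3, 15 of eIF4 and 9 of the others. The 7 that stayed below were Eif2ak2, Eif2c5, Eif2s3y, Eif3k, Eif4a3l1, Eif4ebp2 and Eif5a2.

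The tables came from oocytes of 4-week-old C57BL/6 females primed with PMSG, a gonadotropin that drives follicle growth, and each library pooled 10 oocytes. Both later groups are labelled metaphase II (MII), the stage at which the mature egg waits for fertilization. The first was at the germinal vesicle (GV) stage, before meiosis resumes. The samples are 2 libraries of GV oocytes, labelled as not treated, 3 of MII oocytes given DMSO, the solvent, and 2 given BYBX, a ligand that binds and stabilizes RNA G-quadruplexes (rG4s), and the genotype label reads Control for the first 5 and Treat for the last 2 although no allele is named. The labels tie no library to a single female, so the replicates may share animals and the p-values measure the spread between these libraries only. The labels give neither the dose of BYBX nor the share of oocytes with a polar body in these libraries. In the paper, fewer oocytes emitted a polar body as the dose of BYBX rose. Only a small part of those treated reached MII, and these had abnormal spindles. Whether the BYBX libraries match the DMSO ones in stage is thus not known. By the paper's methods, GV oocytes used as controls received DMSO as well, whereas the GV label reads not treated. Whether the GV libraries differ from MII with DMSO in solvent is therefore uncertain.

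Initiation starts when eIF2, with GTP and the initiator tRNA, joins the small ribosomal subunit together with eIF1, eIF1A, eIF3 and eIF5. The eIF4 factors bind the cap of the mRNA and unwind its 5'-UTR, and eIF5B then joins the large subunit. Fully grown oocytes are transcriptionally silent, so maturation runs on stored mRNA, whose translation is switched by the length of the poly(A) tail and by proteins that hold or release the cap-binding factor eIF4E. Levels of the factors' own mRNAs say nothing of the amount or activity of the proteins.

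The authors deposited 1 FPKM value per gene and library, fragments scaled to transcript length and to library depth. They had adjusted it by ERCC RNA added to each lysate and, where batches differed, by the GV oocytes of the batch. The number of reads behind a value is unknown. All listed entries summed to 402113 to 489569 FPKM in GV, to 109732 to 127254 FPKM in MII with DMSO and to 201482 to 246710.0 FPKM in MII with BYBX. Levels between groups rest on that scaling, and so the counts, the group medians and, where the sign turns, the genes described in full are also given on 2 other scales, either with the FPKM of every library brought to one sum (equal totals) or with its log2 values shifted to one median (median centring). Below, "with DMSO" and "with BYBX" stand for the MII libraries. The libraries were primed with oligo-dT, so that a lost poly(A) tail and a lost mRNA cannot be told apart, nor can a change in each of the 10 oocytes and a mixture of oocytes that differ. All 13 oocyte markers were above 1 FPKM on average in GV and in MII with BYBX, and 12 in MII with DMSO, where Figla was at 0.080 FPKM. The 13 granulosa and cumulus markers summed to at most 18.7 FPKM in a GV library and 4.63 FPKM in an MII library, with Ptx3 at 0 throughout, and their part in the results was not tested. The 4 Y-linked markers, the member Eif2s3y among them, were at 0 in every library.

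Among the transcripts of the 50 tested genes, a motif that can fold into an rG4 (4 runs of at least 3 G with loops of 1 to 7 bases, so the letters GGG 4 times over, on the transcribed strand only) was found in 7, or 14% of them. It was found in 17.7% of the 8870 tested genes that had a protein-coding transcript in GENCODE vM21. These matches are shown because BYBX binds such structures. They lie in Eif4h and Eif6, which are among the genes with the largest differences, and in Eif4a1, whose difference was among the smaller. Eif3g, with the largest fall, held no such match, and neither did Eif3m, Eif1ax and Eif2b4, which also had large differences. The runs of G are in capitals and positions are on GRCm38, the assembly also called mm10. A loop base could itself be G. In the 3'-UTR of Eif4g1 the last runs and the g between them are an unbroken stretch of G, so that match depends on this allowance. A match describes the letters and is not evidence of a folded structure.
Eif4h 3'-UTR, chr5:134621478-134621499, minus strand: GGGaGGGaatGGGGcgtGGGGG
Eif6 5'-UTR, chr2:155826520-155826548, minus strand: GGGcatctgaGGGGcccgagaGGGcGGGG
Eif5 5'-UTR, chr12:111538165-111538187, plus strand: GGGGcGGGctccGGGGccgaGGG
Eif4enif1 5'-UTR, chr11:3203036-3203059, plus strand: GGGGcctGGGtgaGGGGccaGGGG
Eif3c CDS, chr7:126558879-126558898, minus strand: GGGcGGGGagtGGGaacGGG
Eif4a1 3'-UTR, chr11:69667382-69667405, minus strand: GGGGGGaGGGGaGGGagccaaGGG
Eif4g1 CDS, chr16:20681534-20681561, plus strand: GGGcccccgaGGGGtGGGccaggtGGGG
Eif4g1 3'-UTR, chr16:20692827-20692846, plus strand: GGGcaGGGGaaaGGGGgGGG

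The cytoplasmic polyadenylation element (CPE), searched as TTTTAT or TTTTAAT in the last 100 bases of the transcript, recruits CPEB1 and is known from mRNAs whose tails lengthen in maturing oocytes. It was found in 5 of the 50 tested genes (10%), against 20.1% of the 8870. The 5 were Eif1a, Eif1ax, Eif3j2, Eif3m and Eif4e3. The elements of Eif1ax and Eif3m, whose levels fell by the most among them, and of Eif4e3, whose fall did not pass the test, are shown with the element in capitals, each with the bases that follow it.
Eif1ax 3'-UTR, chrX:159389899-159389928, plus strand: TTTTATgctgcacaaatatatgtataagtg
Eif3m 3'-UTR, chr2:104999689-104999718, minus strand: TTTTATgaaaatgattttgttcgttgagaa
Eif4e3 3'-UTR, chr6:99625203-99625232, minus strand: TTTTATttttgaactttatttaaagcattt

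Summed over all 57 genes, initiation factor mRNA fell to 0.277 of its GV level in MII with DMSO and was intermediate in MII with BYBX. The sums were 4512 and 3666 FPKM in GV, 982, 1212 and 1201 FPKM in MII with DMSO and 2294 and 1808 FPKM in MII with BYBX, and the 3 groups did not overlap. The ratio of the group means was 0.277 for MII with DMSO over GV and 1.81 for MII with BYBX over MII with DMSO, each with an exact two-sided permutation p of 0.1, the smallest that 2 libraries against 3 can give. MII with BYBX held 0.502 of the GV sum (exact permutation p = 0.33, the smallest for 2 against 2). The total of all listed entries had a ratio of 0.270 for MII with DMSO over GV, close to that of the initiation factors. As a share of all FPKM in its library the sum was 0.922% and 0.912% in GV, 0.895%, 0.981% and 0.944% in MII with DMSO and 0.930% and 0.897% in MII with BYBX, and these groups overlapped.

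The order of the genes by length-scaled level changed with maturation. The 5 highest means in GV were those of Eif1b (383 FPKM), Eif3g (309.8 FPKM), Eif4e3 (237 FPKM), Eif4a1 (213 FPKM) and Eif6 (205 FPKM). In MII with DMSO they were those of Eif4e3 (176 FPKM), Eif4a1 (129 FPKM), Eif1 (114 FPKM), Eif3i (102 FPKM) and Eif4a2 (96.8 FPKM), and in MII with BYBX those of Eif4e3 (206 FPKM), Eif1b (198 FPKM), Eif4a1 (181 FPKM), Eif1 (147 FPKM) and Eif3i (118 FPKM). Eif3g, second in GV, was at rank 31 of 57 in MII with DMSO and at rank 8 with BYBX, and Eif6 went from rank 5 to 28 and 16. Eif4e3 and Eif4a1 stayed among the first 4 in all 3 groups. Neighbours in this order were often closer than the spread of the libraries, as for Eif4e3 at 237 ± 32.4 FPKM and Eif4a1 at 213 ± 24.3 FPKM in GV (SD, n = 2).

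**Figure D1:**
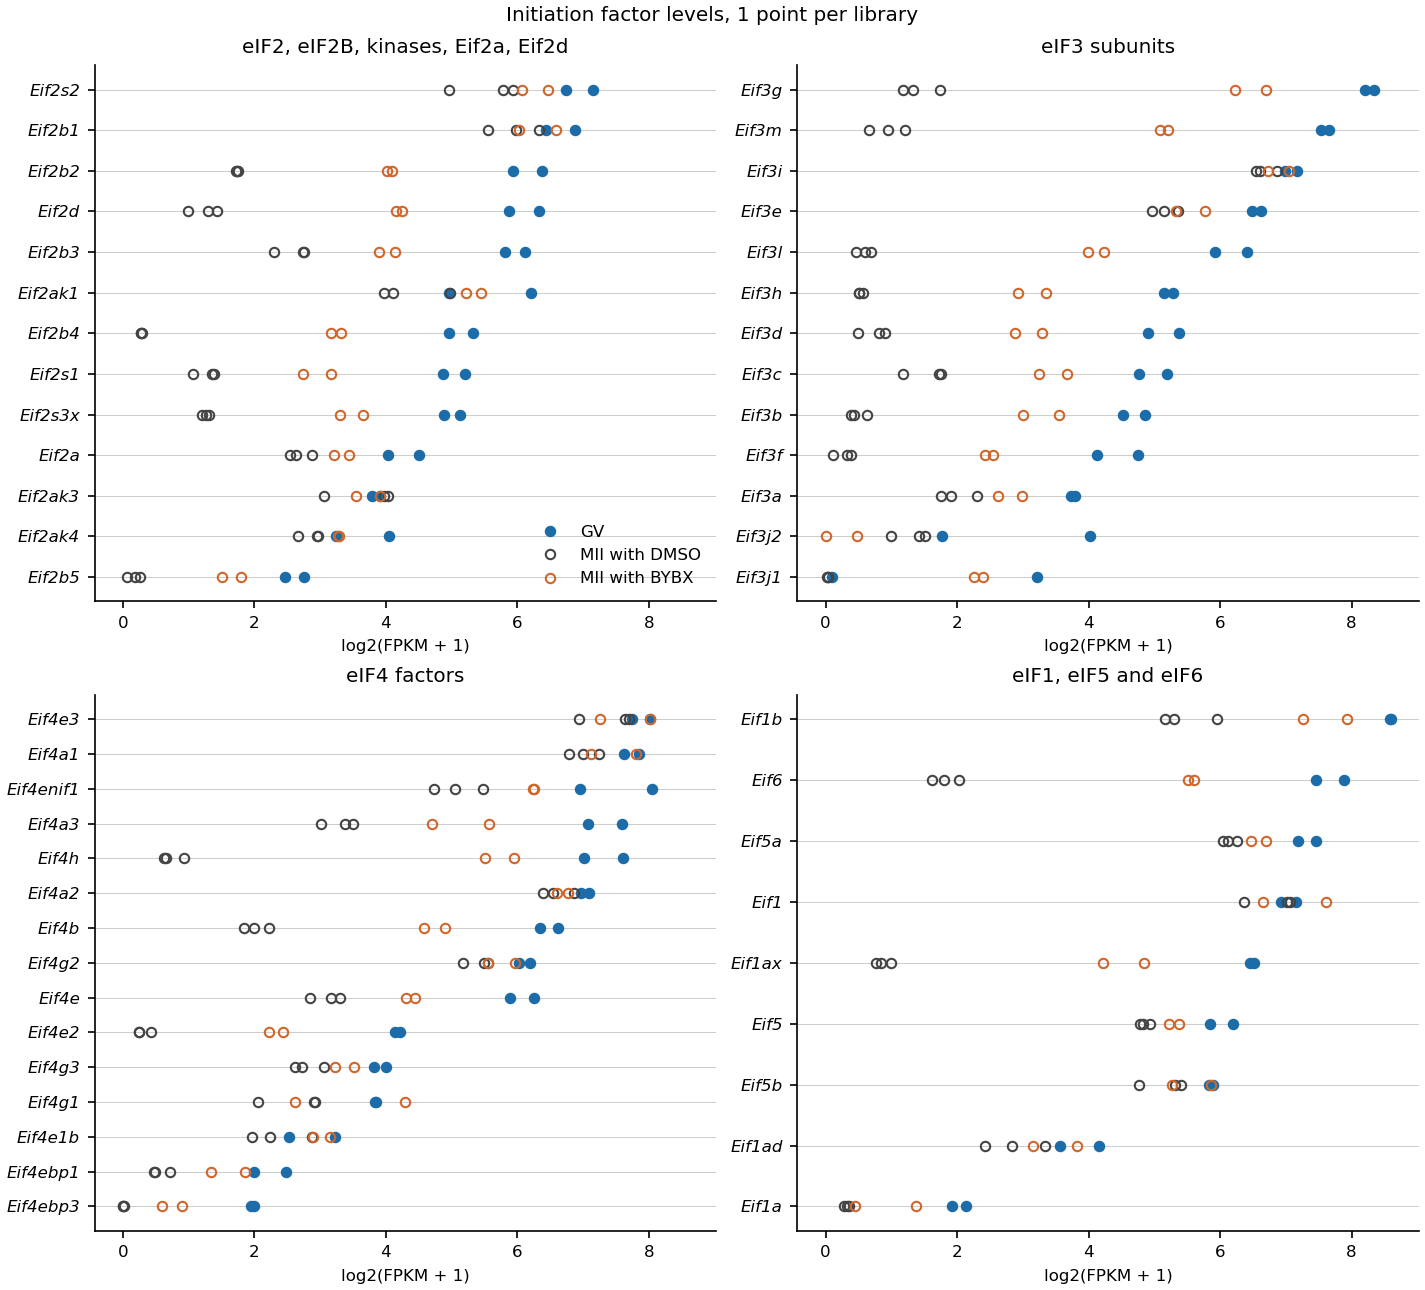
Level of each of the 50 tested initiation factor genes as log2(FPKM + 1) on the horizontal axis, 1 point per library, with filled points for GV (2 libraries) and open points for MII with DMSO (3) and MII with BYBX (2). Genes such as Eif3g, Eif4h and Eif6 have wide gaps between the groups, while those of Eif1, Eif2ak3 and Eif4e3 lie together.

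Most initiation factor mRNAs were lower with DMSO than in GV, and the falls ranged from almost complete to hardly any. Eif3g and Eif3m, subunits of eIF3, Eif4h, which helps the helicase eIF4A, and Eif6, which keeps the large ribosomal subunit from joining early, each dropped to 1.24% of GV or less. Eif1, Eif2ak3, Eif3i, Eif4a2, Eif4e1b and Eif4e3 kept between 65.9% and 92.7% of GV and did not pass the test. On the deposited scale 44 of the 50 tested genes were lower at a Benjamini-Hochberg adjusted p under 0.05 in limma and 0 were higher, while among all 9202 tested entries 88.3% were lower and 0.272% higher. The median log2 difference was -1.87 for the 50 genes and -1.83 for all tested entries. All tested entries were also put into 10 classes of GV level, and each gene was given the median of its class. The median of these class values over the 50 genes was -2.77. The count and the median of the 50 genes thus lay close to those of all entries, and the median above that of the class values.

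The groups differed in their place within that fall. The median log2 difference from GV was -4.17 for eIF3, -2.44 for eIF2, -1.68 for eIF4 and -1.19 for the others, or -2.34, -0.61, 0.16 and 0.65 relative to all tested entries. The medians of the class values were -2.53 for the eIF3 and the eIF2 genes and -2.77 for eIF4 and the others. Lower calls were made for 12 of 13 eIF3 genes, 12 of 13 eIF2 genes, 12 of 15 eIF4 genes and 8 of 9 others. With equal totals 26 of the 50 genes were lower and 14 higher, against 49.5% and 23.3% of all entries, and the group medians were -3.03, -1.61, -0.55 and 0.67. After median centring 22 were lower and 21 higher, against 26.7% and 48.8%, with group medians of -1.87, -0.14, 0.63 and 1.12. The eIF3 median was the lowest of the 4 on all 3 scales, whereas the sign of the eIF4 and other medians turned. These medians are over genes, which are not replicates, and carry no test.

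Several of the smaller falls lost their call when a library was left out. In some the difference hardly moved, as for Eif4g1 at -1.21 and Eif5b at -0.70 with all libraries. Leaving out a library also leaves fewer degrees of freedom, so a lost call need not mean that this library set the difference. Without GV replicate 1, 35 of the 50 genes were lower and 9 calls were lost, with log2 differences of -0.70 for Eif1ad, -0.61 for Eif2ak1, -0.37 for Eif2ak4, -0.49 for Eif2b1, -0.46 for Eif3j2, -0.61 for Eif4a1, -1.2 for Eif4g1, -0.62 for Eif4g2 and -0.73 for Eif5b. Without GV replicate 2 the calls of 3 genes were lost, at -0.065 for Eif3j1, -1.23 for Eif4g1 and -0.66 for Eif5b. Leaving out MII with DMSO replicate 1 ended the calls at -0.62 for Eif4a1, -0.59 for Eif4g2 and -0.50 for Eif5b, replicate 2 those at -0.68 for Eif2ak4 and -0.50 for Eif2b1, and replicate 3 that at -0.72 for Eif2b1. Without MII with DMSO replicate 1 a call was gained, at -0.77 for Eif4e1b. On the other scales Eif1ad and Eif2ak1 were above 0, at 0.70 and 0.59 with equal totals and at 1.30 and 1.06 after median centring, and Eif3j1 was at 0.68 after median centring.

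**Figure D2:**
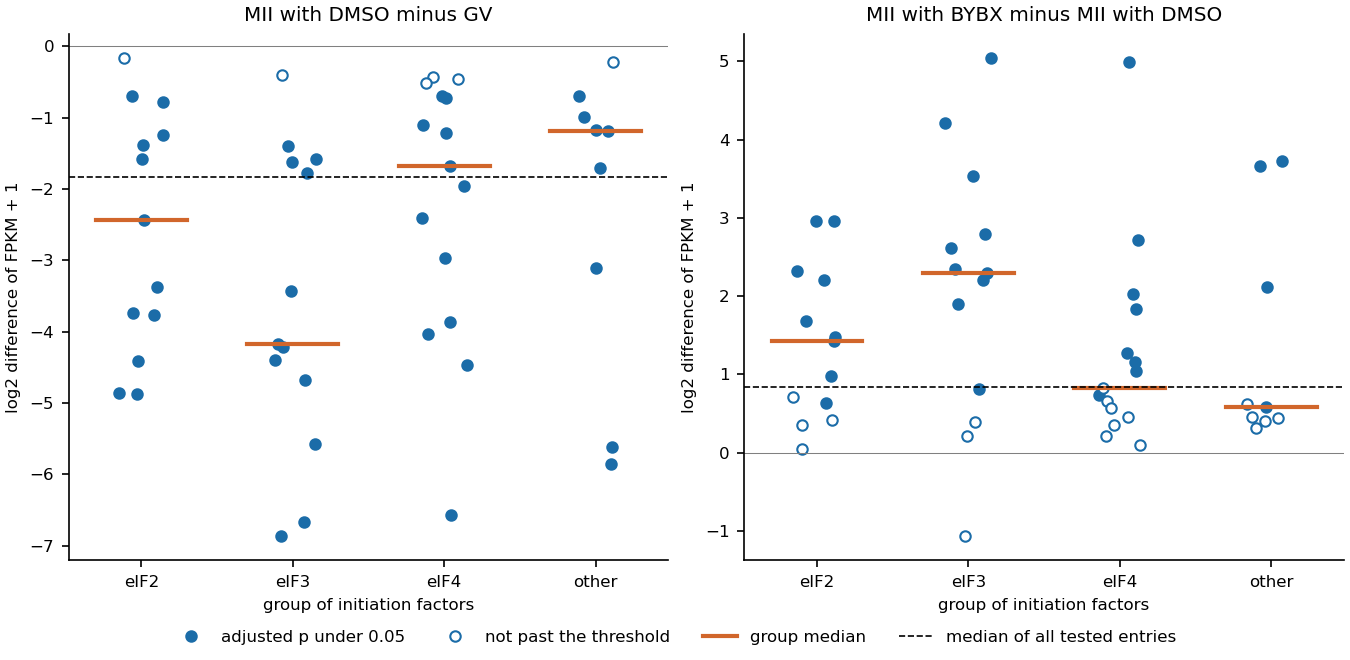
Log2 difference of FPKM + 1 on the deposited scale for each tested initiation factor gene, by group, for MII with DMSO minus GV (left) and MII with BYBX minus MII with DMSO (right), with filled points at a limma adjusted p under 0.05, group medians as orange bars and the median of all 9202 tested entries as a dashed line. The eIF3 genes spread from -6.86 to -0.41 on the left, with a median of -4.17, and have the highest median on the right, at 2.29.

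With BYBX, MII oocytes had more of most initiation factor mRNAs than MII oocytes with DMSO, by anything from a slight difference to more than an order of magnitude. By the ratio of the FPKM means Eif3g was at 51.9 times its level with DMSO, Eif4h 77.5 times, Eif3m 36.8 times and Eif1ax 27.2 times, while Eif4a2 and Eif2ak3 stood at 1.06 and 0.993 times it. The high ratios rest on low DMSO means, such as 1.70 FPKM for Eif3g and 0.834 FPKM for Eif1ax. Other genes low with DMSO had high ratios too, as Eif3j1 at 189 times 0.0212 FPKM and Eif2b4 at 39.7 times 0.214 FPKM. In limma 31 of the 50 genes were higher and 0 lower, among all entries 65.2% and 0.0326%. The median log2 difference was 1.10 for the 50 genes and 0.84 for all entries, and the median of the class values was 1.38. By group the median log2 difference was 2.29 for eIF3 (10 of 13 higher), 1.43 for eIF2 (9 of 13), 0.83 for eIF4 (8 of 15) and 0.59 for the others (4 of 9). With equal totals 25 genes were higher and 7 lower, against 39.9% and 8.22% of all entries, and after median centring 18 were higher and 18 lower, against 18.4% and 43.9%. The eIF3 median was still above 0 on these scales, at 2.09 and 1.02, as was that of eIF2 at 0.65 and 0.15, that of eIF4 was 0.29 and -0.45, and that of the others was -0.17 and -0.69. The calls of Eif1a, Eif2a, Eif2ak1 and Eif3a were lost when single libraries were left out, although some differences then hardly moved or grew. With all libraries these differences were 0.59, 0.64, 0.98 and 0.82, and the limma adjusted p of the first 3 was 0.041, 0.037 and 0.035. Without MII with BYBX replicate 1 the last 3 were at 0.75 for Eif2a, 1.09 for Eif2ak1 and 0.64 for Eif3a. Without MII with BYBX replicate 2, Eif1a, Eif2a and Eif2ak1 were at 0.13 for Eif1a, 0.53 for Eif2a and 0.86 for Eif2ak1. Omitting MII with DMSO replicate 1 ended the calls of Eif1a and Eif2a, replicate 2 those of Eif1a and Eif2ak1, and replicate 3 those of all 3, at 0.61 for Eif1a, 0.57 for Eif2a and 0.79 for Eif2ak1, and omitting either GV library ended that of Eif1a, at 0.59. The sign of these 4 also turned after median centring, to -0.69 for Eif1a, -0.64 for Eif2a, -0.30 for Eif2ak1 and -0.46 for Eif3a, and that of Eif2a with equal totals, to -0.15. Calls were gained as well. Eif1ad passed at 0.96 without MII with BYBX replicate 1 and at 0.86 without MII with DMSO replicate 1, Eif4a1 at 0.80 without MII with BYBX replicate 2, Eif4e1b at 0.92 and Eif2s2 at 0.90 without MII with DMSO replicates 1 and 2, and Eif3j2 was then lower, at -1.07 without either GV library, -1.30 without MII with BYBX replicate 2 and -1.22 without MII with DMSO replicate 1.

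Relative to GV, BYBX-treated MII oocytes were still lower for 33 of the 50 genes and higher for 0, where 69.2% and 0.315% of all entries were so called. The lowest was Eif3j2 at -2.65 (standard error 0.50, limma adjusted p = 4.8e-04), a gene whose reads are uncertain, followed by Eif3m at -2.45 (standard error 0.27, limma adjusted p = 5.9e-05). The value of Eif3j2 was -1.52 without GV replicate 1 and -3.77 without GV replicate 2, so its place as the lowest rested on GV replicate 1. The largest difference upwards, 0.67 (standard error 0.63, limma adjusted p = 0.36) for Eif3j1, did not pass the test and rested on the GV libraries, since it was -0.89 (limma adjusted p = 0.0073) without GV replicate 1 and 2.23 (limma adjusted p = 6.8e-04) without GV replicate 2. The group medians were -1.81 for eIF3, with 11 of 13 genes lower, -0.97 for eIF2 (8 of 13), -0.74 for the others (6 of 9) and -0.64 for eIF4 (8 of 15), beside -0.99 for all entries. With equal totals 18 genes were lower and 4 higher, against 13.3% and 5.3% of all entries, and the group medians became -0.83, -0.20, 0.25 and 0.080. After median centring 17 were lower and 6 higher, against 13.6% and 15.2%. The calls of Eif1b, Eif5 and Eif5a were lost when single libraries were left out. Their log2 differences were -0.98 for Eif1b, -0.54 for Eif5 and -0.60 for Eif5a without GV replicate 1. They were -0.66 for Eif1b, -0.65 for Eif5 and -0.62 for Eif5a without MII with BYBX replicate 2. The same omissions ended the calls of Eif2a (-0.71) and Eif4enif1 (-0.71) in the first case and of Eif3a (-0.78) and Eif3e (-0.79) in the second, GV replicate 2 ended those of Eif1b (-1.0) and Eif4ebp1 (-0.39), MII with BYBX replicate 1 those of Eif4ebp1 (-0.39) and Eif5 (-0.79), and MII with DMSO replicate 2 that of Eif5 (-0.72). Calls were gained at -0.77 for Eif2ak4 without GV replicate 2, -1.22 for Eif4g1 without MII with BYBX replicate 1 and -0.68 for Eif2s2 without MII with DMSO replicate 1. After median centring 7 of the genes with lost calls were above 0, at 0.035 for Eif1b, 0.079 for Eif2a, 0.067 for Eif3a, 0.024 for Eif3e, 0.39 for Eif4ebp1, 0.31 for Eif5 and 0.29 for Eif5a, and with equal totals Eif4ebp1, Eif5 and Eif5a were, at 0.080, 0.25 and 0.25. The 3 comparisons share libraries in pairs, so their lists are not independent.

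The 3 subunits of eIF2, which carries the initiator tRNA, did not move as one. Eif2s1 (alpha; chromosome 12, 78861819 to 78887010, plus strand), whose phosphorylation stops the cycle, was at 35.8 and 28.4 FPKM in GV, 1.61, 1.55 and 1.09 with DMSO and 5.68 and 7.96 with BYBX. It fell by 3.77 on the log2 scale (standard error 0.24, limma adjusted p = 5.1e-09) and was higher with BYBX by 1.69 (standard error 0.24, limma adjusted p = 4.5e-05). All 3 MII libraries with DMSO lay below both BYBX libraries, and these below both of GV. Eif2s3x, the X-linked gamma subunit that binds the tRNA, was at 34.0 and 28.6 FPKM in GV, 1.41, 1.31 and 1.49 with DMSO and 11.5 and 8.84 with BYBX. Its differences, -3.74 (standard error 0.23, limma adjusted p = 3.4e-09) and 2.21 (standard error 0.23, limma adjusted p = 2.5e-06), were close to those of the alpha subunit, but 35.3% of the 100-base stretches of its transcript also occur in Gm2223, so its level is uncertain. Eif2s2 (beta; chromosome 2, 154871410 to 154892935, minus strand), in contrast, was at 141 and 106 FPKM in GV, 30.1, 60.1 and 54.1 with DMSO and 87.2 and 66.2 with BYBX. Its level is uncertain too, since 18.8% of its 100-base stretches also occur in Gm9892. The difference from GV was -1.39 (standard error 0.31, limma adjusted p = 9.1e-04, but 0.47 with equal totals and 0.92 after median centring), and that of BYBX over DMSO, 0.71 (standard error 0.31, limma adjusted p = 0.062, but -0.17 with equal totals and -0.57 after median centring), did not pass the test. The span from the lowest to the highest of the 3 subunits was 3.75- to 4.14-fold in GV, 21.3- to 49.5-fold in MII with DMSO and 8.32- to 15.4-fold in MII with BYBX. Eif2s3y, the Y-linked copy, was at 0 throughout, as was Eif2c5, a non-coding entry in GENCODE whose symbol is of the kind once used for Argonaute genes.

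The 5 subunits of eIF2B, which reloads eIF2 with GTP, were as uneven. Eif2b4 (chromosome 5, 31187558 to 31193430, minus strand), the delta subunit, was at 39.3 and 30.1 FPKM in GV, 0.227, 0.207 and 0.207 with DMSO and 9.03 and 7.94 with BYBX. This was the largest fall of the eIF2 group, -4.87 (standard error 0.22, limma adjusted p = 4.2e-10), and at 2.96 (standard error 0.22, limma adjusted p = 1.6e-07) with BYBX over DMSO also a large rise. The groups did not overlap. Eif2b2 (beta) was at 81.8 and 60.3 FPKM in GV, 2.33, 2.37 and 2.31 with DMSO and 15.1 and 16.2 with BYBX. Eif2b3 (gamma) was at 68.7 and 55.5 FPKM in GV, 5.66, 3.91 and 5.73 with DMSO and 16.6 and 13.9 with BYBX. Eif2b5 (epsilon), the catalytic subunit, was at 4.52 and 5.78 FPKM in GV, 0.0491, 0.203 and 0.139 with DMSO and 2.47 and 1.83 with BYBX. All 3 were lowest with DMSO, at 3.29%, 8.21% and 2.53% of GV, and stood at 22.0%, 24.6% and 41.7% of GV with BYBX, and their log2 differences from GV were -4.42, -3.38 and -2.44 (limma adjusted p = 1.1e-09, 2.3e-08 and 4.1e-08). Eif2b1, the alpha subunit, kept 61.8% and 78.6%, with 117 and 86.1 FPKM in GV, 79.4, 46.0 and 62.4 with DMSO and 64.3 and 95.0 with BYBX, a difference from GV of -0.70 (standard error 0.30, limma adjusted p = 0.039, but 1.16 with equal totals and 1.60 after median centring). In every library Eif2b1 was the highest and Eif2b5 the lowest of the 5, with a span of 14.9- and 25.8-fold in GV, 227- to 1616-fold in MII with DMSO, where Eif2b5 was under 1 FPKM, and 26.1- and 51.8-fold with BYBX.

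Eif2ak3 and Eif2ak4, kinases that phosphorylate eIF2 alpha, had some of the smaller differences. Eif2ak3, or PERK, the kinase of the endoplasmic reticulum (chromosome 6, 70844515 to 70905245, plus strand), was at 12.8 and 14.1 FPKM in GV, 7.38, 14.7 and 15.3 with DMSO and 14.0 and 10.7 with BYBX. Its libraries overlapped in all pairs of groups, and neither the difference from GV, -0.16 (standard error 0.30, limma adjusted p = 0.61, but 1.58 with equal totals and 2.14 after median centring), nor that of BYBX over DMSO, 0.041 (standard error 0.30, limma adjusted p = 0.91, but -0.80 with equal totals and -1.24 after median centring), passed the test. Eif2ak4, or GCN2, which senses uncharged tRNA, was at 15.6 and 8.42 FPKM in GV, 6.80, 5.36 and 6.77 with DMSO and 8.65 and 8.75 with BYBX. It was lower in MII with DMSO, at -0.78 (standard error 0.27, limma adjusted p = 0.015, but 0.91 with equal totals and 1.52 after median centring), without overlap, and its difference with BYBX was 0.42 (standard error 0.27, limma adjusted p = 0.19, but -0.39 with equal totals and -0.86 after median centring). Eif2ak1, the heme-regulated kinase, went from 51.8 ± 30.5 FPKM in GV to 20.4 ± 8.61 FPKM in MII with DMSO and 39.3 ± 4.5 FPKM with BYBX (SD), with a wide gap between the GV libraries, of 73.3 and 30.2 FPKM. Eif2ak2, or PKR, which responds to double-stranded RNA, was between 0.0037 and 0.208 FPKM and was not tested. Eif2a and Eif2d, which can bring the initiator tRNA without eIF2, differed from each other. Eif2d was at 79.4 and 57.5 FPKM in GV, 1.47, 0.987 and 1.71 with DMSO and 16.8 and 18.1 with BYBX. Eif2d fell by 4.86 on the log2 scale (standard error 0.25, limma adjusted p = 8.5e-10). Eif2a was at 21.8 and 15.3 FPKM in GV, 5.18, 6.37 and 4.81 with DMSO and 8.24 and 9.80 with BYBX, which was 29.4% of GV in MII with DMSO against 2.02% for Eif2d, and its difference from GV was -1.58 (standard error 0.25, limma adjusted p = 3.7e-05, but 0.12 with equal totals and 0.72 after median centring).

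The eIF3 complex is the largest of the factors and bridges the small ribosomal subunit and the mRNA through eIF4G. Eif3g (chromosome 9, 20894349 to 20898623, minus strand), an RNA-binding subunit, had the largest fall of all 50 genes and was at 325 and 295 FPKM in GV, 1.52, 2.33 and 1.25 with DMSO and 103 and 73.7 with BYBX. Its log2 difference was -6.86 (standard error 0.27, limma adjusted p = 2.6e-10) from GV, with 0.239% of tested entries below it, and 5.05 (standard error 0.27, limma adjusted p = 2.4e-08) with BYBX over DMSO, with 99.8% below it. The GV libraries were high, the BYBX libraries intermediate and the DMSO libraries low, with no overlap. Eif3m (chromosome 2, 104999656 to 105017080, minus strand) went the same way, with 202 and 185 FPKM in GV, 0.584, 0.922 and 1.30 with DMSO and 33.0 and 36.0 with BYBX. The log2 differences were -6.66 (standard error 0.25, limma adjusted p = 2.4e-10) from GV and 4.21 (standard error 0.25, limma adjusted p = 4.1e-08) for BYBX over DMSO. Eif3b, which carries an RNA recognition motif, was at 22.1 and 28.1 FPKM in GV, 0.302, 0.551 and 0.355 with DMSO and 10.8 and 7.0 with BYBX. Log2 differences of this gene were -4.21 (standard error 0.24, limma adjusted p = 2.0e-09) from GV and 2.79 (standard error 0.24, limma adjusted p = 5.1e-07) for BYBX over DMSO. Eif3d, which can itself bind caps, was at 40.7 and 28.8 FPKM in GV, 0.872, 0.764 and 0.403 with DMSO and 6.37 and 8.78 with BYBX. Its log2 differences came to -4.40 (standard error 0.25, limma adjusted p = 1.9e-09) from GV and 2.35 (standard error 0.25, limma adjusted p = 3.3e-06) for BYBX over DMSO. These libraries fell into the same 3 separate ranges. Eif3c, a core subunit and the one with the rG4 motif in its coding sequence, was at 35.5 and 26.2 FPKM in GV, 1.25, 2.31 and 2.38 with DMSO and 11.8 and 8.45 with BYBX. On the log2 scale these were differences of -3.42 (standard error 0.27, limma adjusted p = 3.6e-08) from GV and 1.90 (standard error 0.27, limma adjusted p = 3.8e-05) for BYBX over DMSO. Eif3f was at 26.0 and 16.5 FPKM in GV, 0.249, 0.0774 and 0.307 with DMSO and 4.38 and 4.82 with BYBX. Differences in log2 were -4.17 (standard error 0.24, limma adjusted p = 1.7e-09) from GV and 2.21 (standard error 0.24, limma adjusted p = 3.0e-06) for BYBX over DMSO. Eif3h and Eif3l went from means of 36.1 ± 2.43 and 71.6 ± 17.2 FPKM in GV to 0.445 ± 0.0329 and 0.50 ± 0.114 FPKM with DMSO and 7.92 ± 1.81 and 16.4 ± 2.08 FPKM with BYBX (SD). By percent of GV, Eif3b, Eif3d, Eif3f, Eif3h and Eif3l kept between 0.698% and 1.96% of GV in MII with DMSO, and Eif3c 6.43%. With BYBX these 6 were at 21.6% to 35.4% of GV.

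Eif3i (chromosome 4, 129591960 to 129600648, minus strand), a WD-repeat subunit that binds Eif3g and Eif3b in the complex, stood apart from them. It was at 144 and 126 FPKM in GV, 92.9, 96.7 and 115 with DMSO and 131 and 105 with BYBX, which is 75.5% and 87.6% of GV by the means. The difference from GV was -0.41 (standard error 0.25, limma adjusted p = 0.13, but 1.47 with equal totals and 1.90 after median centring), and that of BYBX over DMSO was 0.21 (standard error 0.25, limma adjusted p = 0.45, but -0.68 with equal totals and -1.07 after median centring). Its GV libraries were above all DMSO libraries, and the BYBX libraries overlapped both. Eif3e was at 88.8 and 97.1 FPKM in GV, 30.1, 40.1 and 34.3 with DMSO and 53.5 and 39.4 with BYBX. Eif3e fell by 1.40 on the log2 scale (standard error 0.26, limma adjusted p = 1.6e-04, but 0.46 with equal totals and 0.91 after median centring). Eif3a, the largest core subunit, was at 12.9 and 12.3 FPKM in GV, 2.74, 3.92 and 2.37 with DMSO and 6.93 and 5.16 with BYBX. Eif3a fell by 1.78 on the log2 scale (standard error 0.25, limma adjusted p = 1.1e-05, but 0.53 after median centring). The span of the 11 subunits without Eif3j1 and Eif3j2 was thus wider in MII with DMSO. There the highest was 373- to 1249-fold the lowest, against 24.0- and 25.2-fold in GV and 21.8- and 29.9-fold with BYBX. The lowest with DMSO was Eif3f, at only 0.0774 to 0.307 FPKM. Over all 13 tested subunits the span was 4763- and 122-fold in GV, 4264- to 5402-fold with DMSO and 19688- and 265-fold with BYBX. Eif3j1 and Eif3j2 share sequence, in 36.0% and 84.0% of their 100-base stretches, and code for forms of the loosely bound subunit j. Eif3j1 was at 0.0682 and 8.30 FPKM in GV, 0.0195, 0.0227 and 0.0214 with DMSO and 3.78 and 4.25 with BYBX. Eif3j2 was at 15.2 and 2.41 FPKM in GV, 0.998, 1.86 and 1.68 with DMSO and 0.00665 and 0.398 with BYBX. In the GV libraries one was high where the other was low, so single values of the pair are uncertain. The BYBX over DMSO difference of Eif3j2, -1.07 (standard error 0.46, limma adjusted p = 0.054), was the only one below 0 among the 50, and its difference from GV was -1.58 (standard error 0.46, limma adjusted p = 0.0051, but 0.72 after median centring). Eif3k was between 0 and 0.339 FPKM and was not tested.

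**Figure D3:**
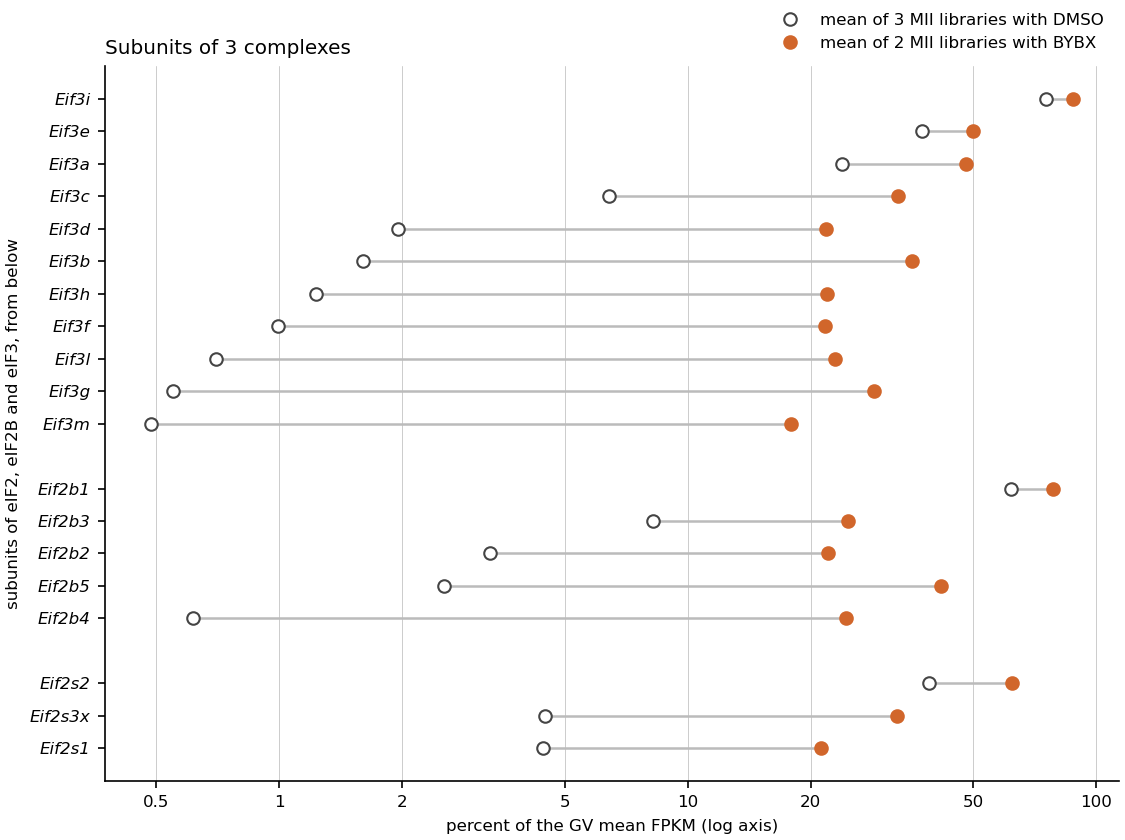
Mean FPKM in MII with DMSO (open points) and MII with BYBX (filled points) as percent of the GV mean, on a log axis, for the tested subunits of eIF2, eIF2B and eIF3 without Eif3j1 and Eif3j2. Eif3i, Eif2b1 and Eif2s2 kept 75.5%, 61.8% and 38.9% with DMSO, and 8 of the 11 eIF3 subunits 0.485% to 6.43%.

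Within eIF4, the helicases Eif4a1 and Eif4a2 kept most of their GV level and their cofactors kept little. Eif4a1 (chromosome 11, 69666936 to 69672423, minus strand), the main helicase that unwinds 5'-UTRs, was at 230.1 and 196 FPKM in GV, 109, 149.7 and 127 with DMSO and 223 and 138 with BYBX. The fitted log2 differences were -0.73 (standard error 0.27, limma adjusted p = 0.023, but 1.15 with equal totals and 1.58 after median centring) from GV and 0.46 (standard error 0.27, limma adjusted p = 0.15, but -0.43 with equal totals and -0.82 after median centring) for BYBX over DMSO. GV and DMSO libraries did not overlap, but 60.8% of its 100-base stretches are shared with Eif4a-ps4, a pseudogene by its symbol, so part of the value may be assigned wrongly. Its paralog Eif4a2 was at 136 and 125 FPKM in GV, 82.6, 116 and 92.1 with DMSO and 109 and 96.6 with BYBX. Neither -0.44 (standard error 0.25, limma adjusted p = 0.11, but 1.44 with equal totals and 1.87 after median centring) nor 0.096 (standard error 0.25, limma adjusted p = 0.74, but -0.79 with equal totals and -1.18 after median centring) passed the test. Eif4a3 belongs to the exon junction complex and is not an initiation factor in the strict sense. It was at 191 and 134 FPKM in GV, 10.3, 7.12 and 9.39 with DMSO and 25.0 and 46.4 with BYBX. Eif4a3 fell by 4.03 on the log2 scale (standard error 0.31, limma adjusted p = 2.4e-08) and was higher with BYBX than with DMSO by 1.83 (standard error 0.31, limma adjusted p = 1.5e-04). Eif4h (chromosome 5, 134619721 to 134639490, minus strand), which stimulates eIF4A, was at 194 and 129 FPKM in GV, 0.581, 0.539 and 0.914 with DMSO and 44.5 and 60.7 with BYBX. The log2 differences were -6.57 (standard error 0.27, limma adjusted p = 2.6e-10) and 4.99 (standard error 0.27, limma adjusted p = 2.4e-08), the widest of the eIF4 group in both directions, and the groups were far apart. Eif4b, which also assists eIF4A, was at 97.1 and 80.004 FPKM in GV, 2.58, 2.98 and 3.66 with DMSO and 29.0 and 22.8 with BYBX. By limma the log2 differences were -4.46 (standard error 0.25, limma adjusted p = 1.5e-09) from GV and 2.72 (standard error 0.25, limma adjusted p = 7.9e-07) for BYBX over DMSO. Eif4a3l1, named as a copy of Eif4a3, was at 0 to 0.151 FPKM.

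The cap-binding genes also differed widely among themselves. Eif4e3 (chromosome 6, 99625135 to 99666771, minus strand), a cap-binding paralog, was the most abundant member in both MII groups, at 259.7 and 214 FPKM in GV, 122, 208 and 199 with DMSO and 259.6 and 153 with BYBX. The difference from GV of -0.46 (standard error 0.31, limma adjusted p = 0.17, but 1.42 with equal totals and 1.85 after median centring) and that of BYBX over DMSO, 0.21 (standard error 0.31, limma adjusted p = 0.54, but -0.68 with equal totals and -1.06 after median centring), did not pass the test. Eif4e (chromosome 3, 138526179 to 138559696, plus strand), the general cap-binding protein, was at 75.4 and 58.2 FPKM in GV, 8.87, 8.0 and 6.22 with DMSO and 18.8 and 20.8 with BYBX. It fell by 2.96 on the log2 scale (standard error 0.25, limma adjusted p = 8.2e-08) and was higher with BYBX by 1.27 (standard error 0.25, limma adjusted p = 6.7e-04, but -0.010 after median centring), with no overlap between any pair of groups. Eif4e1b, an oocyte-enriched paralog, was at 8.36 and 4.74 FPKM in GV, 6.32, 2.90 and 3.73 with DMSO and 7.92 and 6.39 with BYBX, so that GV and DMSO overlapped. The difference from GV was -0.51 (standard error 0.30, limma adjusted p = 0.12, but 1.07 with equal totals and 1.79 after median centring), and the difference with BYBX was 0.66 (standard error 0.30, limma adjusted p = 0.068, but -0.095 with equal totals and -0.62 after median centring). Eif4e2, also called 4EHP, which occupies caps without recruiting eIF4G, was at 17.6 and 16.6 FPKM in GV, 0.191, 0.181 and 0.350 with DMSO and 3.69 and 4.43 with BYBX. Eif4e2 fell by 3.87 on the log2 scale (standard error 0.21, limma adjusted p = 1.1e-09).

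The genes of the proteins that hold eIF4E were mostly low. Eif4enif1 (chromosome 11, 3202392 to 3244588, plus strand), or 4E-T, a repressor that binds eIF4E in stored mRNPs, was the exception at 263 and 124 FPKM in GV, 43.7, 32.2 and 25.7 with DMSO and 75.6 and 74.7 with BYBX. It fell by 2.41 on the log2 scale (standard error 0.33, limma adjusted p = 9.6e-06) and was higher with BYBX by 1.16 (standard error 0.33, limma adjusted p = 0.0073, but -0.12 after median centring). Its GV libraries differed from each other by more than those of any other group. Eif4ebp1 went from 3.79 ± 1.16 FPKM to 0.478 ± 0.140 FPKM with DMSO and 2.08 ± 0.753 FPKM with BYBX (SD), and its differences were -1.68 (standard error 0.22, limma adjusted p = 7.3e-06, but 0.63 after median centring) and 1.04 (standard error 0.22, limma adjusted p = 0.0011, but -0.24 after median centring). Eif4ebp2 was at 1.30 and 1.11 FPKM in GV, 0.546, 0.40 and 0.681 with DMSO and 1.30 and 1.02 with BYBX and was not tested. Eif4ebp3, of whose 100-base stretches 62.8% also occur in AC115631.1, was at 2.85 and 2.99 FPKM in GV, 0.0159, 0 and 0 with DMSO and 0.869 and 0.505 with BYBX. The difference from GV of -1.96 (standard error 0.17, limma adjusted p = 8.2e-08, but 0.34 after median centring) depends on the added 1, since 2 of the DMSO libraries are listed at 0. The 3 scaffolds had smaller differences. Eif4g1, which joins eIF4E, eIF4A and eIF3, was at 13.5 and 13.2 FPKM in GV, 3.17, 6.59 and 6.51 with DMSO and 18.6 and 5.15 with BYBX. In log2, it differed by -1.21 (standard error 0.41, limma adjusted p = 0.013, but 0.46 with equal totals and 1.09 after median centring) from GV and 0.83 (standard error 0.41, limma adjusted p = 0.09, but -0.45 after median centring) for BYBX over DMSO. Eif4g2, a relative without the eIF4E site, was at 72.1 and 64.1 FPKM in GV, 35.0, 46.0 and 43.9 with DMSO and 61.3 and 46.1 with BYBX. The log2 differences were -0.70 (standard error 0.26, limma adjusted p = 0.019, but 1.15 with equal totals and 1.60 after median centring) from GV and 0.36 (standard error 0.26, limma adjusted p = 0.23, but -0.52 with equal totals and -0.92 after median centring) for BYBX over DMSO. Eif4g3, the second full-length scaffold, was at 15.0 and 13.1 FPKM in GV, 5.15, 5.61 and 7.35 with DMSO and 10.4 and 8.34 with BYBX. Log2 differences of this gene were -1.11 (standard error 0.24, limma adjusted p = 7.4e-04, but 0.59 with equal totals and 1.2 after median centring) from GV and 0.57 (standard error 0.24, limma adjusted p = 0.055, but -0.23 with equal totals and -0.71 after median centring) for BYBX over DMSO. All 3 passed the test against GV and none with BYBX over DMSO, where Eif4g1 passed at 1.66 (limma adjusted p = 9.2e-04) without MII with BYBX replicate 2 and Eif4g3 at 0.70 (limma adjusted p = 0.046) without MII with DMSO replicate 3. The BYBX libraries of Eif4g1 lay on either side of the GV ones.

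Eif1, which guards the choice of the start codon, and its close paralog Eif1b parted during maturation. Eif1b (chromosome 9, 120492232 to 120495330, plus strand) was the most abundant member in GV and was at 385 and 382 FPKM in GV, 34.9, 38.4 and 61.0 with DMSO and 242 and 153 with BYBX. It fell by 3.11 on the log2 scale (standard error 0.30, limma adjusted p = 2.6e-07), was higher with BYBX by 2.12 (standard error 0.30, limma adjusted p = 3.5e-05), and was lower than GV with BYBX, at -0.99 (standard error 0.33, limma adjusted p = 0.016, but 0.035 after median centring). Eif1 (chromosome 11, 100319885 to 100322096, plus strand) was at 141 and 121 FPKM in GV, 81.4, 132 and 129 with DMSO and 194 and 99.9 with BYBX, with all groups overlapping. Its differences of -0.23 (standard error 0.32, limma adjusted p = 0.50, but 1.64 with equal totals and 2.08 after median centring) and 0.32 (standard error 0.32, limma adjusted p = 0.38, but -0.57 with equal totals and -0.96 after median centring) did not pass the test. Of the 100-base stretches of Eif1, 19.2% occur in other transcripts. Eif1ax (chromosome X, 159372178 to 159389928, plus strand), the X-linked gene of eIF1A, which helps scanning, was at 87.1 and 90.4 FPKM in GV, 0.699, 0.801 and 1.0 with DMSO and 27.7 and 17.7 with BYBX. Its log2 differences came to -5.62 (standard error 0.25, limma adjusted p = 4.0e-10) from GV and 3.66 (standard error 0.25, limma adjusted p = 8.7e-08) for BYBX over DMSO. Eif1a, its autosomal copy, was at 3.41 and 2.79 FPKM in GV, 0.215, 0.257 and 0.285 with DMSO and 0.370 and 1.59 with BYBX. Eif1a fell by 1.71 on the log2 scale (standard error 0.24, limma adjusted p = 1.1e-05, but 0.60 after median centring).

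Eif6 (chromosome 2, 155819832 to 155826925, minus strand) had the largest fall of this group, from 236 and 174 FPKM in GV, 2.07, 2.5 and 3.08 with DMSO and 47.4 and 44.5 with BYBX. The differences were -5.85 (standard error 0.26, limma adjusted p = 3.4e-10) and, with BYBX over DMSO, 3.73 (standard error 0.26, limma adjusted p = 8.2e-08), and the groups lay in 3 separate ranges. Eif5, which makes eIF2 hydrolyse its GTP, was at 72.7 and 56.3 FPKM in GV, 27.3, 26.7 and 29.4 with DMSO and 40.5 and 36.5 with BYBX. On the log2 scale these were differences of -1.17 (standard error 0.24, limma adjusted p = 4.7e-04, but 0.67 with equal totals and 1.13 after median centring) from GV and 0.46 (standard error 0.24, limma adjusted p = 0.12, but -0.42 with equal totals and -0.82 after median centring) for BYBX over DMSO. Eif5b, the GTPase that joins the large subunit, was at 55.8 and 58.4 FPKM in GV, 26.3, 41.2 and 38.9 with DMSO and 57.2 and 37.4 with BYBX. Differences in log2 were -0.70 (standard error 0.28, limma adjusted p = 0.033, but 1.15 with equal totals and 1.61 after median centring) from GV and 0.40 (standard error 0.28, limma adjusted p = 0.22, but -0.48 with equal totals and -0.88 after median centring) for BYBX over DMSO. Eif5a, the hypusinated factor now known mainly for elongation, was at 175 and 144 FPKM in GV, 65.0, 68.4 and 75.2 with DMSO and 103 and 87.4 with BYBX. The fitted log2 differences were -1.19 (standard error 0.24, limma adjusted p = 4.2e-04, but 0.68 with equal totals and 1.12 after median centring) from GV and 0.45 (standard error 0.24, limma adjusted p = 0.12, but -0.44 with equal totals and -0.83 after median centring) for BYBX over DMSO. These 3 passed the test against GV on the deposited scale and did not with BYBX over DMSO. Eif5a2 was at 0.0575 to 0.531 FPKM and was not tested, and Eif1ad, named for a domain it shares with eIF1A, was at 13.8 ± 4.24, 6.52 ± 2.39 and 10.5 ± 3.72 FPKM in GV, MII with DMSO and MII with BYBX (SD).

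Shares within a library do not move with its scaling factor. The eIF3 genes made up 22.9% and 25.1% of the summed FPKM of the 57 genes in GV, 13.5%, 12.4% and 13.4% in MII with DMSO and 16.8% and 17.7% with BYBX. The 3 ranges did not overlap, with BYBX between the other groups. The eIF4 genes went the other way, with 35.0% and 32.2% in GV, 43.9%, 48.3% and 43.9% with DMSO and 38.8% and 38.1% with BYBX, again with BYBX in between. For both groups of genes the exact two-sided permutation p was 0.1 for MII with DMSO against GV and for BYBX against DMSO, and 0.33 for BYBX against GV, the smallest values these designs allow. Such shares follow the genes with the highest FPKM. Eif3g held 325 and 295 of the eIF3 sums of 1033 and 919 FPKM in GV. With DMSO it held 1.52, 2.33 and 1.25 of 132, 151 and 161 FPKM. Eif3m fell much alike, and the highest eIF4 genes with DMSO were Eif4e3, Eif4a1 and Eif4a2. Shares without these genes were not computed, so the shifts are not shown to hold across each group. The eIF2 share was 15.2 ± 1.2%, 15.0 ± 2.27% and 15.0 ± 2.92% in GV, MII with DMSO and MII with BYBX, and that of the others 27.2 ± 1.65%, 26.6 ± 1.73% and 29.3 ± 3.01% (SD), with overlap between all groups.

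**Figure D4:**
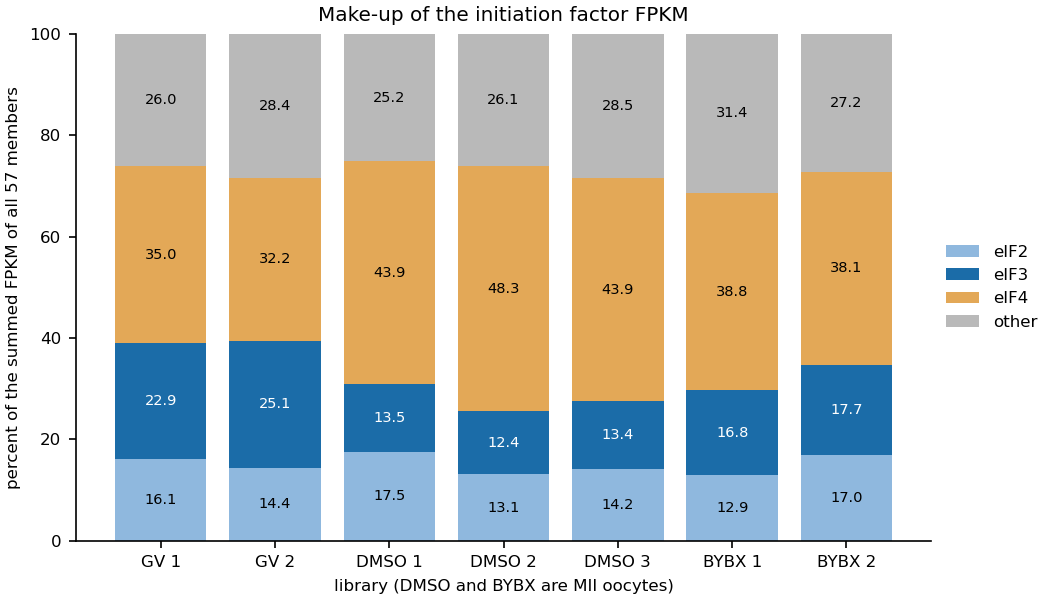
Share of the summed FPKM of all 57 initiation factor genes that each group of genes made up, in percent, for each of the 7 libraries (stacked bars, GV 1 and 2, MII with DMSO 1 to 3, MII with BYBX 1 and 2). The eIF3 share is 22.9% and 25.1% in GV and 12.4% to 13.5% in MII with DMSO, and the eIF4 share is highest there.

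The linear ratio of a pair of genes from one library is free of its scaling too, and 13 pairs of paralogs, subunits or partners were compared. Differences between groups were taken on log2 ratios of FPKM + 1, which are not wholly free of it where a gene is low. With 39 comparisons and so few libraries none could pass a corrected threshold, since the smallest adjusted p was 0.3, and only separation between libraries is described. Eif1b over Eif1 was 2.72 and 3.16 in GV, 0.428, 0.291 and 0.472 with DMSO and 1.25 and 1.53 with BYBX, in 3 ranges that did not overlap. The log2 ratio of the values plus 1 differed by -2.89 (exact two-sided permutation p = 0.1, adjusted p = 0.3) between MII with DMSO and GV and by 1.80 (exact two-sided permutation p = 0.1, adjusted p = 0.3) between BYBX and DMSO. The paralog that was in excess in GV was thus the scarcer one in MII with DMSO and again in excess with BYBX. Eif4e1b over Eif4e was 0.111 and 0.0815 in GV, 0.712, 0.363 and 0.60 with DMSO and 0.421 and 0.308 with BYBX, a difference of 2.45 (exact two-sided permutation p = 0.1, adjusted p = 0.3) for DMSO against GV, and the MII groups overlapped. Eif2s2 over Eif2s1 was 3.93 and 3.75 in GV, 18.7, 38.8 and 49.5 with DMSO and 15.4 and 8.32 with BYBX, with 2.38 (exact two-sided permutation p = 0.1, adjusted p = 0.3) and overlap between the MII groups. Eif4a3 over Eif4a1 was 0.830 and 0.687 in GV, 0.0943, 0.0476 and 0.0738 with DMSO and 0.112 and 0.335 with BYBX, with -3.31 (exact two-sided permutation p = 0.1, adjusted p = 0.3).

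The other pairs overlapped between groups or differed by less, except those with a gene near 1 FPKM. Eif2s3x over Eif2s1 was 0.951 and 1.01 in GV, 0.881, 0.846 and 1.36 with DMSO and 2.03 and 1.11 with BYBX, with 0.028 (exact two-sided permutation p = 1.0, adjusted p = 1.0). Eif4g3 over Eif4g1 differed by 0.11 (exact two-sided permutation p = 0.70, adjusted p = 0.827) and Eif5b over Eif5 by 0.48 (exact two-sided permutation p = 0.30, adjusted p = 0.5), and Eif2ak3 over Eif2ak4 by 0.62 (exact two-sided permutation p = 0.40, adjusted p = 0.578), all with overlap. Eif4a2 over Eif4a1 was separated between GV and DMSO but by 0.29 only, Eif4g2 over Eif4g1 by 0.51 and Eif4enif1 over Eif4e by 0.55. Eif4ebp2 over Eif4e was higher in MII with DMSO than in GV, by 2.44, with Eif4ebp2 near 1 FPKM, where the added 1 weighs most, and Eif5a2 over Eif5a differed by 0.69 but by -0.60 with 0.1 added in place of 1. A ratio that missed separation is not shown to be unchanged with so few libraries.

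**Figure D5:**
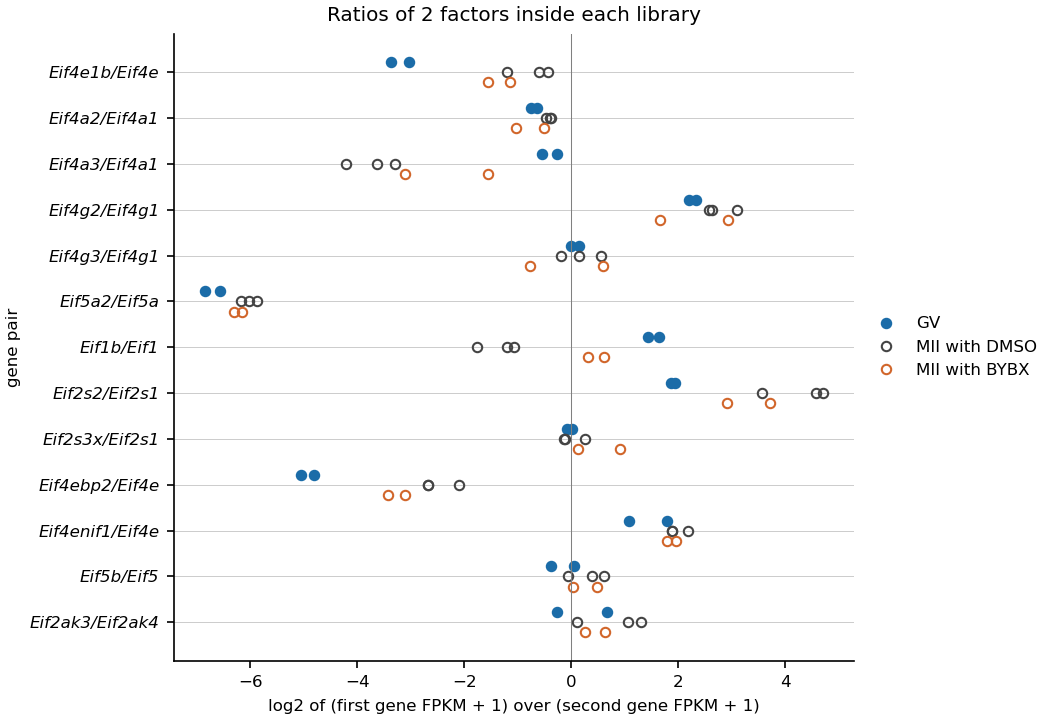
Log2 ratio of (FPKM + 1) of the first over the second gene of 13 pairs, 1 point per library, filled for GV and open for MII with DMSO and MII with BYBX. Eif1b over Eif1 falls into 3 ranges, with GV highest and MII with DMSO lowest, while Eif4g3 over Eif4g1 overlaps in all groups.

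The genes with an rG4 motif differed widely among themselves. The 7 tested members with one had a median log2 difference of -2.41 in MII with DMSO against GV, and the 43 without one -1.78, where all tested genes had -1.59 with and -1.89 without. With BYBX over DMSO these medians were 1.16 and 1.04 for the members and 0.77 and 0.86 for all genes. The order of the 2 medians against GV turned with the motif searched. With loops of up to 12 bases, 13 members with it had -1.68 and 37 without -1.96. The 3 with a motif of the shorter loops in the 3'-UTR had -1.21 against -1.96. That -1.21 was the value of Eif4g1 itself, whose match there counted a G as a loop, so it rested on how a loop was defined. Eif4h, with its motif in the 3'-UTR, was at 4.99 for BYBX over DMSO, and Eif4a1, also with one in the 3'-UTR, at 0.46. Among the 3 with a motif in the 5'-UTR (6% of the members, 7.38% of all genes), Eif6 was at 3.73, Eif4enif1 at 1.16 and Eif5 at 0.46. For the 5 members with a CPE, Eif3m, Eif1ax, Eif1a, Eif3j2 and Eif4e3, the differences from GV in MII with DMSO ran from -6.66 to -0.46, with a median of -1.71 against -1.96 for members without, and -1.25 and -1.99 over all genes. In the last 200 bases 11 members held a CPE, and their median was then the lower one, -3.11 against -1.78 for the 39 without, while over all genes it was -1.33 with and -2.06 without. Of the genes that were not tested, Eif2ak2, Eif4ebp2 and Eif5a2 also held an rG4 motif. These are descriptions of few genes, and how far one annotated transcript stands for the oocyte's own was not tested.

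Genes that act with the initiation factors but carry other names were also mostly lower with DMSO than in GV. Of 32 listed genes, among them poly(A)-binding proteins and their partners, kinases and phosphatases of the eIF2 and eIF4E circuits, and helicases, 30 were tested. In MII with DMSO all 30 were lower than in GV, with a median log2 difference of -1.65 and a range from -7.68 for Paip2 to -0.71 for Ppp1r15a, and Larp1 and Ncbp1 were below the filter. With BYBX 22 were higher than with DMSO and 0 lower, from 0.18 for Paip1 to 5.29 for Paip2, with a median of 0.74, and against GV 23 were lower and 0 higher, with a median of -0.98. Paip2, an inhibitor of the poly(A)-binding protein, had mean levels of 565, 1.77 and 107 FPKM in GV, MII with DMSO and MII with BYBX. Cpeb1, which binds the CPE, had 348, 26.9 and 86.9 FPKM, and Atf4, the transcription factor translated when eIF2 is phosphorylated, 398, 13.2 and 137 FPKM. Ppp1r15a, which guides a phosphatase to eIF2, had 28.3, 16.5 and 19.3 FPKM and was among the least changed. The shares called, 30 of 30, 22 of 30 and 23 of 30, stand beside the 88.3%, 65.2% and 69.2% of all tested entries.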

How the data were processed

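Each library was made from 10 pooled mouse oocytes by the Smart-seq2 method. The authors trimmed reads with Trim Galore 0.6.7, mapped them to mm10 with HISAT2 2.2.1, kept reads with a unique position and computed FPKM with Cufflinks 2.2.1 on UCSC gene models. The deposited FPKM had been normalized to ERCC RNA and, between batches, to the GV samples, with factors that are not given in the sources used here. The number of reads per library is not given either, so no counting interval could be set.

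The 4 entries with a missing value were left out, and log2(FPKM + 1) was fitted with limma 3.58.1 in R 4.3.3, with trend, for all 9202 entries whose 3 group means averaged at least 1 FPKM. All 7 libraries entered 1 model of group means with 4 residual degrees of freedom, p-values were adjusted by Benjamini-Hochberg over all entries, and the threshold was 0.05. Sums and within-library ratios were compared by exact two-sided permutation tests in SciPy 1.17.1. Transcripts, positions and sequences came from GENCODE vM21 on GRCm38 (mm10), with 1 protein-coding transcript per gene, found for 56 of the 57 genes, and the share of 100-base stretches found in other genes was counted. A rule set 28 genes to be described in full. They were the 5 highest in GV, the extremes of each group in the first 2 comparisons and the genes of the ratio pairs. Other members were given values as well, but the sign changes listed below for named genes cover the 28 only. Genes, lists and pairs were chosen with earlier results of these data known. Alternatives were a pseudocount of 0.1, a filter at 5 FPKM or none, equal total FPKM, median centring, a fit of the groups compared alone, a replicate block and leaving out each library.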

Additional observations from a re-analysis of the deposited data

How the results depend on the processing

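Part of the calls depended on the scale. With equal totals 14 genes were higher and 26 lower in MII with DMSO against GV, 7 were lower in BYBX against DMSO, and 4 were higher and 18 lower in BYBX-treated MII against GV. After median centring these counts were 21 and 22, then 18 higher and 18 lower, and then 6 and 17. With equal totals the group medians were -1.61 for eIF2, -3.03 for eIF3, -0.55 for eIF4 and 0.67 for the others for MII with DMSO against GV, 0.65 for eIF2, 2.09 for eIF3, 0.29 for eIF4 and -0.17 for the others for BYBX against DMSO, and -0.20 for eIF2, -0.83 for eIF3, 0.080 for eIF4 and 0.25 for the others for BYBX-treated MII against GV. After median centring they were -0.14 for eIF2, -1.87 for eIF3, 0.63 for eIF4 and 1.12 for the others, then 0.15 for eIF2, 1.02 for eIF3, -0.45 for eIF4 and -0.69 for the others, and then 0.060 for eIF2, -0.79 for eIF3, 0.39 for eIF4 and 0.29 for the others. As a share of the library total, the ratio of the summed levels was 1.03, 0.972 and 0.997 in the same order.

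With equal totals, named genes changed sign in MII with DMSO against GV to 1.64 for Eif1, 1.58 for Eif2ak3, 0.91 for Eif2ak4, 0.47 for Eif2s2, 1.47 for Eif3i, 1.15 for Eif4a1, 1.44 for Eif4a2, 1.07 for Eif4e1b, 1.42 for Eif4e3, 0.46 for Eif4g1, 1.15 for Eif4g2, 0.59 for Eif4g3, 0.67 for Eif5, 0.68 for Eif5a and 1.15 for Eif5b. There, in BYBX against DMSO they did so to -0.57 for Eif1, -0.80 for Eif2ak3, -0.39 for Eif2ak4, -0.17 for Eif2s2, -0.68 for Eif3i, -0.43 for Eif4a1, -0.79 for Eif4a2, -0.095 for Eif4e1b, -0.68 for Eif4e3, -0.52 for Eif4g2, -0.23 for Eif4g3, -0.42 for Eif5, -0.44 for Eif5a and -0.48 for Eif5b. Likewise, in BYBX-treated MII against GV they did so to 0.78 for Eif2ak3, 0.53 for Eif2ak4, 0.30 for Eif2s2, 0.79 for Eif3i, 0.72 for Eif4a1, 0.64 for Eif4a2, 0.75 for Eif4e3, 0.51 for Eif4g1, 0.62 for Eif4g2, 0.36 for Eif4g3, 0.25 for Eif5, 0.25 for Eif5a and 0.67 for Eif5b. After median centring, named genes changed sign in MII with DMSO against GV to 2.08 for Eif1, 2.14 for Eif2ak3, 1.52 for Eif2ak4, 0.92 for Eif2s2, 1.90 for Eif3i, 0.72 for Eif3j2, 1.58 for Eif4a1, 1.87 for Eif4a2, 1.79 for Eif4e1b, 1.85 for Eif4e3, 1.09 for Eif4g1, 1.60 for Eif4g2, 1.2 for Eif4g3, 1.13 for Eif5, 1.12 for Eif5a and 1.61 for Eif5b. In BYBX against DMSO they did so to -0.96 for Eif1, -1.24 for Eif2ak3, -0.86 for Eif2ak4, -0.57 for Eif2s2, -1.07 for Eif3i, -0.82 for Eif4a1, -1.18 for Eif4a2, -0.010 for Eif4e, -0.62 for Eif4e1b, -1.06 for Eif4e3, -0.12 for Eif4enif1, -0.45 for Eif4g1, -0.92 for Eif4g2, -0.71 for Eif4g3, -0.82 for Eif5, -0.83 for Eif5a and -0.88 for Eif5b. In BYBX-treated MII against GV they did so to 0.035 for Eif1b, 0.90 for Eif2ak3, 0.66 for Eif2ak4, 0.35 for Eif2s2, 0.83 for Eif3i, 0.76 for Eif4a1, 0.69 for Eif4a2, 0.78 for Eif4e3, 0.64 for Eif4g1, 0.68 for Eif4g2, 0.49 for Eif4g3, 0.31 for Eif5, 0.29 for Eif5a and 0.73 for Eif5b.

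With a pseudocount of 0.1 the group medians that moved were -3.59 for eIF2, -5.52 for eIF3 and -2.44 for eIF4 in MII with DMSO against GV, 3.86 for eIF3 and 1.18 for eIF4 in BYBX against DMSO and -1.23 for eIF2 and -0.85 for eIF4 in BYBX-treated MII against GV. With a filter at 5 FPKM the group medians that moved were -1.21 for eIF4 in MII with DMSO against GV, 1.2 for eIF2 in BYBX against DMSO and -1.24 for eIF2 in BYBX-treated MII against GV. Without a filter on level the group medians that moved were -2.01 for eIF2, -3.80 for eIF3 and -1.21 for eIF4 in MII with DMSO against GV and 1.2 for eIF2 and 0.74 for eIF4 in BYBX against DMSO. Only Eif3j2 (1 gene) was lower with BYBX than with DMSO at a pseudocount of 0.1 and in a fit of only the 2 groups. The log2 ratio of Eif5a2 over Eif5a became -0.60 and 0.61 for MII with DMSO against GV and for BYBX against DMSO at that pseudocount. An rG4 motif with loops of up to 12 bases was held by 13 of the 50 genes, and a CPE in the last 200 bases by 11. With 1 library left out at a time, a group of 2 keeps 1, which is assumed to vary like the others. The genes called lower in MII with DMSO were then 35 to 45, those higher with BYBX than with DMSO 29 to 31 and lower 0 to 1, and those lower in BYBX-treated MII than in GV 28 to 34 and higher 0 to 1. The group medians ranged from -2.59 to -2.29 for eIF2, from -4.19 to -3.86 for eIF3, from -1.87 to -1.33 for eIF4 and from -1.36 to -1.05 for the others in MII with DMSO against GV, from 1.28 to 1.48 for eIF2, from 2.16 to 2.36 for eIF3, from 0.58 to 0.97 for eIF4 and from 0.50 to 0.96 for the others in BYBX against DMSO and from -1.19 to -0.97 for eIF2, from -1.88 to -1.57 for eIF3, from -1.22 to -0.53 for eIF4 and from -0.90 to -0.60 for the others in BYBX-treated MII against GV. Named genes whose sign turned with 1 library left out ranged, over these omissions, as follows: Eif1 from -0.16 to 0.80 in BYBX against DMSO, Eif1 from -0.38 to 0.57 in BYBX-treated MII against GV, Eif2ak3 from -0.33 to 0.15 in MII with DMSO against GV, Eif2ak3 from -0.27 to 0.22 in BYBX against DMSO, Eif2ak3 from -0.30 to 0.057 in BYBX-treated MII against GV, Eif2ak4 from -0.77 to 0.042 in BYBX-treated MII against GV, Eif4a1 from -0.61 to 0.073 in BYBX-treated MII against GV, Eif4a2 from -0.0091 to 0.23 in BYBX against DMSO, Eif4e1b from -0.20 to 0.50 in BYBX-treated MII against GV, Eif4e3 from -0.17 to 0.60 in BYBX against DMSO, Eif4e3 from -0.62 to 0.14 in BYBX-treated MII against GV, Eif4g1 from -0.011 to 1.66 in BYBX against DMSO, Eif4g1 from -1.22 to 0.45 in BYBX-treated MII against GV and Eif5b from -0.59 to 0.0032 in BYBX-treated MII against GV.

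With the replicate number as a replicate block, 39 genes were lower with DMSO than in GV, 27 were higher with BYBX than with DMSO, 31 were lower in BYBX-treated MII than in GV, and the eIF4 median of BYBX against DMSO was 0.96. Whether the numbers pair the libraries is not known. Deviations from the group means of same-numbered libraries correlated at 0.49 and 0.28 between GV and MII with DMSO. The correlation was -0.33 between GV and BYBX, and -0.60 and -0.35 between the MII groups. In a group of 2 libraries the deviations mirror each other, so -0.33 is a single value. Such correlations cannot tell whether libraries shared females or a batch. The cause of these changes was not tested, beyond the change of scale itself. The spread rests on 2 or 3 libraries per group and the depth is unknown, so a difference that missed the threshold is not shown to be absent. Genes near 1 FPKM depend on the pseudocount, and genes with near copies on how reads were assigned.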
